A study of Homo sapiens with 6 samples.

Results

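Distal SMARCA4 peaks that carried both a GATA word and an AP-1 word near their centre were described by the spacing and order of these sites and by the genes around them. A peak was taken as distal when its midpoint lay more than 1 kb from every annotated transcript start on hg19. The 200 bp around the midpoint had to hold a GATA word and an AP-1 word on either strand. The GATA word is GATA with an A or T before it and an A or G after it, and the AP-1 word is TGACTCA or its reverse complement TGAGTCA. Peaks whose own sequence held a G-quadruplex (G4) motif, defined as 4 runs of at least 3 guanines on either strand separated by loops of up to 7 bases, were left out. These terms chose 1456 of the 28265 peaks. The window is fixed, so in the 183 members narrower than 200 bp it reaches past the peak, and 1414 members had both sites of their closest pair inside the peak itself. There were 14352 distal peaks, and 1248 of them held a G4 motif. The remaining 13104 distal peaks comprised the 1456 members, 6944 peaks with a GATA word only, 1089 with an AP-1 word only and 3615 with neither. At the distance limit, 39 members lay within 250 bp beyond it, and 35 peaks that met every other term lay within 250 bp inside it.

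The data came from chromatin immunoprecipitation with sequencing (ChIP-seq) in K562, a cell line from a chronic myelogenous leukaemia that carries erythroid and megakaryocytic features. There were 3 libraries made with an antibody to SMARCA4 and 3 input libraries, which carried no antibody. Fixation of all cells took 30 min with disuccinimidyl glutarate at 2 mM, followed by 10 min with formaldehyde at 1%, and chromatin was sheared to 150 to 400 bp. The deposited list pools the 3 antibody libraries and gives a start and an end for each region, with no height or read count, so no value here carries a depth and no spread between replicates can be given.

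SMARCA4, also called BRG1, is an ATPase of the SWI/SNF complexes, which use the energy of ATP to move or evict nucleosomes. GATA factors such as GATA1 and GATA2 bind the GATA word and direct erythroid and megakaryocytic gene expression, often beside TAL1, which binds E-boxes. The AP-1 word is bound by dimers of FOS and JUN family proteins, and with a GC before it also by NF-E2, a dimer of NFE2 and a small MAF protein that acts at globin and platelet genes.

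Members whose nearest coding gene start belonged to the globin, erythroid, red cell, platelet, AP-1 or SWI/SNF list show several arrangements. Each line gives a member of a list, from 10 bases before the first site of the closest pair to 10 bases after the last. They read 5′ to 3′ on the strand that shows the GATA word (hg19). Capitals mark the GATA and AP-1 words of the closest pair, so any other word stays in lower case. The names are those of the nearest coding gene start. The members named for HBE1, FOXO3, KEL and SMARCC1 lay in introns of those genes, the THBS1 and PHLDA1 members in non-coding genes, and the MAF member in no gene. A nearest start can be far away, at 440.9 kb for THBS1, 426.5 kb for MAF and 249.8 kb for PHLDA1, while the other members shown lay within 20 kb of theirs.
HBE1 (chr11:5301915-5301999, plus strand): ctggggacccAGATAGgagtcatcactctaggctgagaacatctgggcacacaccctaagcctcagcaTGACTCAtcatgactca
FOXO3 (chr6:108899889-108899938, minus strand): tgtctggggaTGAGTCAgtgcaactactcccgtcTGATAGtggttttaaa
KEL (chr7:142654370-142654440, plus strand): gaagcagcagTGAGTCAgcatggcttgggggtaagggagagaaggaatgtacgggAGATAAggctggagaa
THBS1 (chr15:39432348-39432396, plus strand): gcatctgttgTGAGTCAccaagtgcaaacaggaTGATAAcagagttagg
MAF (chr16:80061173-80061207, plus strand): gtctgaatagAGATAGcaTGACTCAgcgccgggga
PHLDA1 (chr12:76175595-76175628, minus strand): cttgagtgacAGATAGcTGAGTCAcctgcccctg
SMARCC1 (chr3:47803946-47803989, plus strand): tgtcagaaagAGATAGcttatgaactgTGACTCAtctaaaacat

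The gap between the words ranged in these examples from 1 base in the PHLDA1 member to 52 bases in the HBE1 member. The member nearest to HBE1, the embryonic globin gene, was 810 bp wide and lay 10.8 kb from that gene's start, in the annotated introns of long transcripts of HBE1 and HBG2 and in the neighbourhood of the beta-globin locus control region. It held 1 GATA site and 2 AP-1 sites, and the second AP-1 word is visible in lower case at the end of its line. An AP-1 site preceded by TGC was found in the members named for HBE1 and KEL.

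The 6 members with the smallest gap shared 1 base between the words, so that the last A of the AP-1 word was the first A of the GATA word. On the strand of the GATA word the AP-1 word came first, since the letters allow a shared base in that order alone. The members named for OCRL, CDC37L1 and CTIF lay in introns of those genes, the CTNNB1 member in an intron of ULK4, the HKDC1 member in a non-coding gene and the SMNDC1 member in no gene.
CTNNB1 (chr3:41309652-41309683, minus strand): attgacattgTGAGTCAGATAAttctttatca
HKDC1 (chr10:70977178-70977209, minus strand): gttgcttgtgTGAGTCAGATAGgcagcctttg
OCRL (chrX:128711627-128711658, plus strand): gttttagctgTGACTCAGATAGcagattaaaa
SMNDC1 (chr10:112066044-112066075, plus strand): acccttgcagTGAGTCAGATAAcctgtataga
CDC37L1 (chr9:4686394-4686425, minus strand): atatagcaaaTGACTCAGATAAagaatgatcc
CTIF (chr18:46246951-46246982, plus strand): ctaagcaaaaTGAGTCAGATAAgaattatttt

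A gap of 6 bases with TGACTCA after the GATA word was chosen for display once its count was known. It was found in 16 members. The 6 shown are the widest of them, leaving aside a member of 422 bp nearest to MYC. The members named for MIER1, RSBN1, NFIA, C6orf132 and SCMH1 lay in introns of those genes, and the FBP1 member lay in no gene.
MIER1 (chr1:67420704-67420742, minus strand): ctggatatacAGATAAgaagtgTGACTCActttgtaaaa
RSBN1 (chr1:114347539-114347577, plus strand): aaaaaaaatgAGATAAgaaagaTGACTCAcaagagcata
NFIA (chr1:61736947-61736985, plus strand): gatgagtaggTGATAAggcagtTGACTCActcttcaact
C6orf132 (chr6:42104833-42104871, minus strand): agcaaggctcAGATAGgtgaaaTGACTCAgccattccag
SCMH1 (chr1:41575440-41575478, minus strand): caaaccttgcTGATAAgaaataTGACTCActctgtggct
FBP1 (chr9:97431743-97431781, plus strand): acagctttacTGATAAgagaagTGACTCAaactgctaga

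Site frequency was set against the genome outside the peaks. All 12943585 windows of 200 bp that contained no undetermined base, held no G4 motif, overlapped no peak and lay more than 1 kb from every transcript start were searched in the same way. A GATA word was present in 64.1% of the 13104 peaks and in 37.3% of windows. An AP-1 word was present in 19.4% of peaks and 3.05% of windows, a ratio of 6.36. Both words were present in 11.1% of peaks (95% interval 10.6 to 11.7%) and in 1.05% of windows. Words of the same base composition did not share these contrasts. The GATA words read backwards were less frequent in peaks, at 25.8%, than in windows, at 34.4%, and the AP-1 words read backwards were found in 3.51% and 2.75%, a ratio of 1.27. Intervals in the text cover counting error only, and neighbouring regions of one genome are not independent replicates.

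Among the peaks, AP-1 words were less frequent where a GATA word was present. They occurred in 17.3% of the 8400 peaks with a GATA word and in 23.2% of the 4704 peaks without, a difference of -5.82 percentage points (95% Newcombe interval -7.28 to -4.38). The odds ratio was 0.696 (0.637 to 0.760), and 0.597 (0.544 to 0.656) when peaks were compared within classes of GC content 2 points wide. In genome windows it was 0.882 (0.876 to 0.887). The relation depended on the stretch searched, since with the whole peak in place of its central 200 bp the odds ratio was 1.01 (0.922 to 1.10).

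Most members were simple in composition. Exactly 1 GATA and 1 AP-1 word were found in 865 members, or 59.4% (56.9 to 61.9%). More than a single GATA word was present in 34.3% of members, against 48.4% of GATA-only peaks. More than a single AP-1 word was present in 8.31% of members and 14.3% of AP-1-only peaks. The largest numbers in one member were 6 GATA and 5 AP-1 words. AGATAA made up 46.2% of the 2067 GATA words in members and 50.3% of those in GATA-only peaks, a difference of -4.18 points (-6.51 to -1.84). TGATAA followed with 26.8% in members, then AGATAG with 16.5% and TGATAG with 10.6%.

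Both words clustered at the peak midpoint. Over all 13104 peaks, GATA words were 3.42 times as frequent in the 20-bp bins next to the midpoint as at 400 to 500 bp from it, and AP-1 words 8.62 times. The search window lies inside these profiles, and it fixes the presence of a site within 100 bp of the midpoint but not its place there. In members, GATA words lay a median of 42 bp from the midpoint (40 to 45) and AP-1 words 37.5 bp (34.5 to 39.5). GATA-only peaks gave 40 bp and AP-1-only peaks 35.5 bp. AP-1 words were thus slightly the more central in members by their medians, whose intervals did not overlap. Within the closest pair, the AP-1 word was nearer the midpoint in 755 members, or 51.9%, with an interval that included 50% (49.3 to 54.4%), and the midpoint fell between the words in 39.1%.

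**Figure D1:**
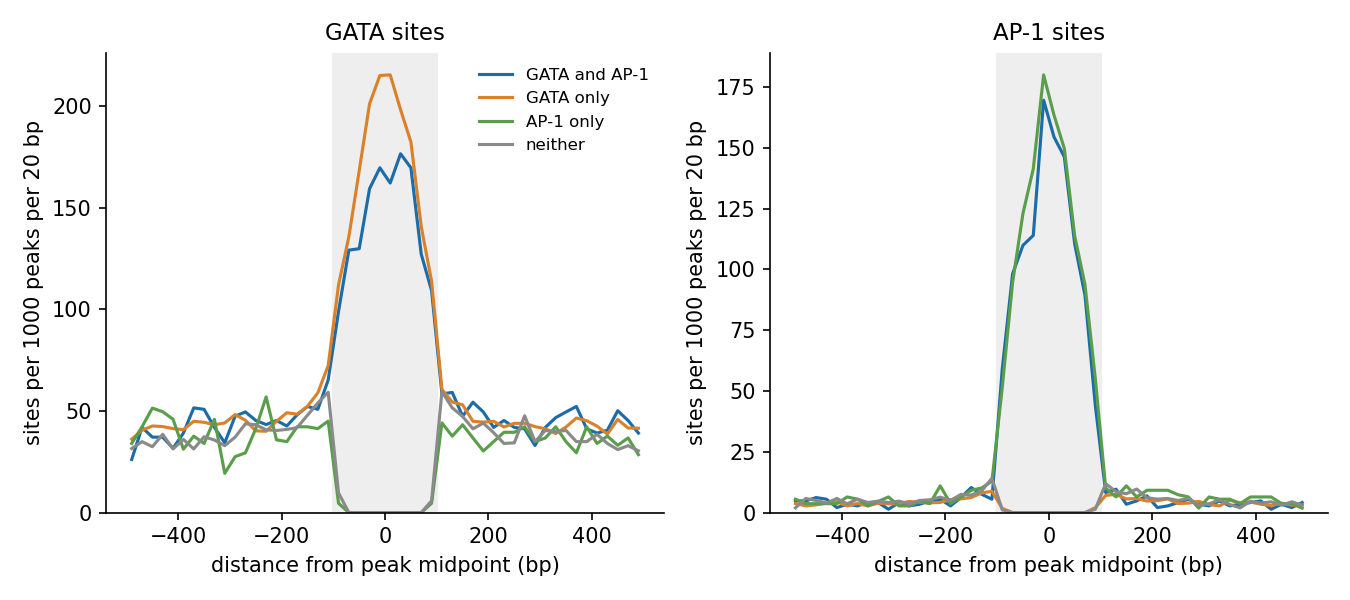
Number of GATA words (left) and AP-1 words (right) per 1000 peaks in each 20-bp bin, by distance from the peak midpoint in bp, for the 4 classes of distal peaks without a G4 motif. Grey marks the central 200 bp in which the classes were defined, so presence or absence there follows from the definition, while the rise toward the midpoint does not.

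The words of members lay closer together than those of genome windows. The median gap of the closest pair, counted in bases between the facing edges, was 33 bp in members (30 to 34) and 48 bp in the 136105 windows with both words. A gap of 20 bp or less was found in 34.3% of members (31.9 to 36.7%) and 24.5% of windows. The median follows the stretch searched, and was 19 bp in members chosen on the central 100 bp (17 to 21) and 44 bp in those chosen on the whole peak (42 to 46). The gap also depends on how many words a window holds. With 1 word of each kind, the medians were 41 bp in 865 members (37 to 44) and 57 bp in 102855 windows, and gaps of 20 bp or less made up 27.1% (24.2 to 30.1%) and 19.9%. Because each word is central on its own, a further value was computed after the gaps were seen. The place of the only GATA word in each of 3584 GATA-only peaks was set against that of the only AP-1 word in each of 933 AP-1-only peaks. Only the places were used, so a shared base was counted in either order, whatever the letters. These pairs from different peaks had a median gap of 45 bp, just above the interval of members with 1 word of each kind, and 24.9% of them had a gap of 20 bp or less, inside the interval of those members. Gaps of 81 bases or more made up 23.3% of these pairs and 20.2% (17.7 to 23.0%) of those members.

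The shortest gaps were less frequent in members than in windows, and gaps in each range from 3 to 40 bases were more frequent. A gap of 2 bases or less, including a shared base, was found in 46 members, or 3.16%, against 4.88% of windows, a difference of -1.72 points (-2.51 to -0.686). Pairs from different peaks had such a gap in 4.65%, and members with 1 word of each kind in 2.20% (1.41 to 3.41%). The 4.65% includes 1.17% with a shared base, counted in either order. Real words allow it only with AP-1 first and a GATA word that starts with A, so the letters set part of this difference. Gaps of 3 to 5 bases made up 4.81% of members and 3.39% of windows, those of 8 to 20 bases 20.9% and 13.9%, and those of 21 to 40 bases 24.3% and 19.2%. The ratio was largest for 6 or 7 bases, which were found in 78 members, or 5.36%, against 2.33% of windows, a difference of 3.02 points (1.98 to 4.30). They made up 4.05% (2.92 to 5.58%) of members with 1 word of each kind, 1.85% of such windows and 2.29% of pairs from different peaks. These ranges were picked from the counts at each gap, so their intervals describe the data and are no test. The single most frequent gap was 7 bases with 41 members, then 6 bases with 37 and 4 bases with 32. In members with 1 word of each kind a gap of 7 bases was again the most frequent, with 21 members, followed by 12 bases with 19, and a gap of 6 bases had 14. At the far end, gaps of 81 bases or more made up 15.1% of members and 28.9% of windows.

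**Figure D2:**
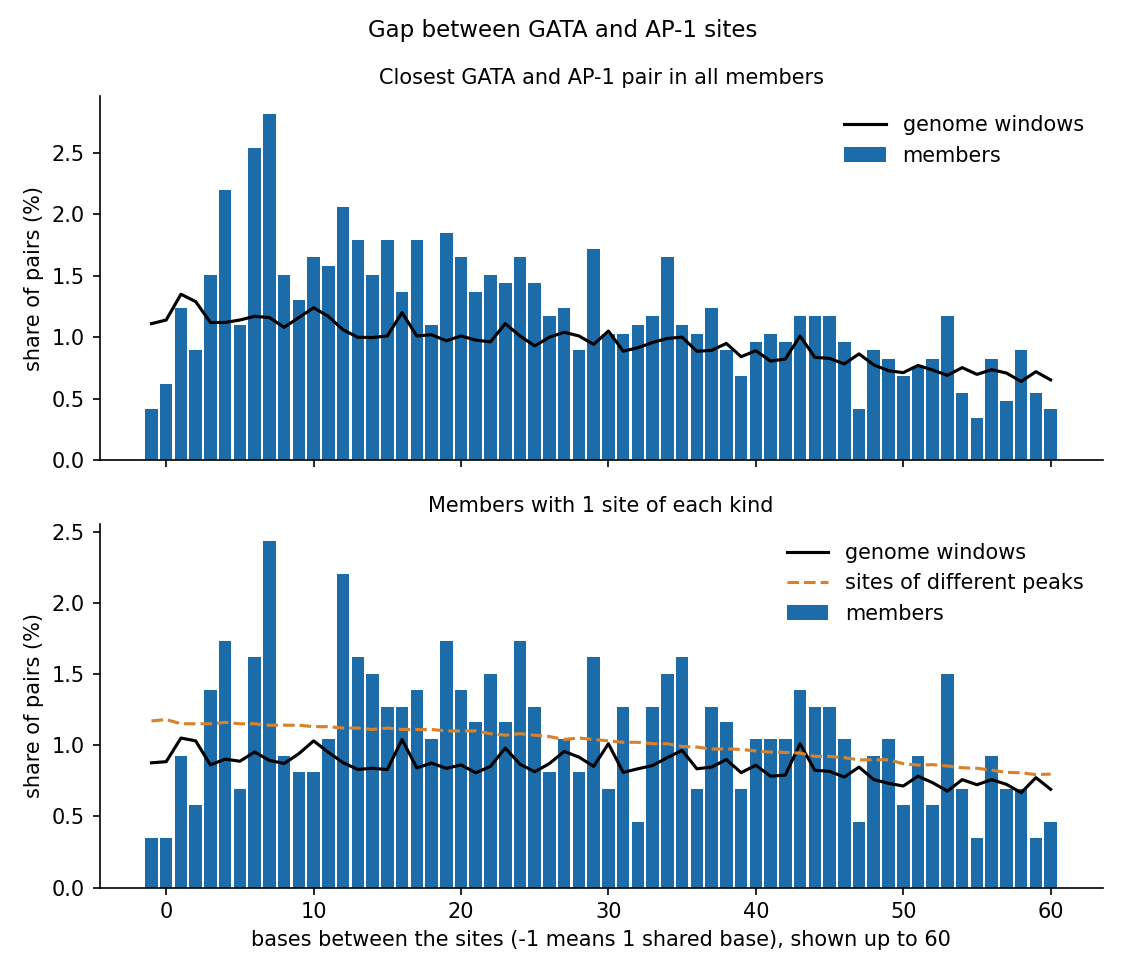
Share of pairs in percent at each gap between GATA and AP-1 words, up to 60 bases, for the closest pair of all 1456 members (top) and for the 865 members with 1 word of each kind (bottom). Bars are members, the black line genome windows, and the dashed line, drawn in the bottom panel only, words taken from different peaks. Bars stand above the lines at 6 and 7 bases and below them at 0 and at the shared base. The dashed line counts a shared base in either order, although the letters allow it only with AP-1 first.

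Order was near even over all members. Read on the strand of the GATA word, the AP-1 word came after it in 717 members, or 49.2% (46.7 to 51.8%), and in 50.5% of windows. The AP-1 word is not quite a palindrome, and its centre base gives it a direction. With AP-1 first, 339 members had centre C and 400 centre G, and with AP-1 after, 374 had C and 343 had G. These shares ran from 23.3% to 27.5%, and those of windows from 23.6% to 25.9%. At a gap of 6 bases the order was uneven. AP-1 came after the GATA word in 29 of 37 members, or 78.4% (62.8 to 88.6%), against 52.5% of windows with that gap. The arrangement with centre C shown above made up 16 of the 37, or 43.2% (28.7 to 59.1%), and 23.1% of windows. This gap was singled out after the counts were seen and holds few members. At 7 bases, the most frequent gap, AP-1 came after in 18 of 41 members, or 43.9% (29.9 to 59.0%), against 45.5% of windows. With both gaps together the share was 60.3% (49.2 to 70.4%) in members and 49.0% in windows.

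**Figure D3:**
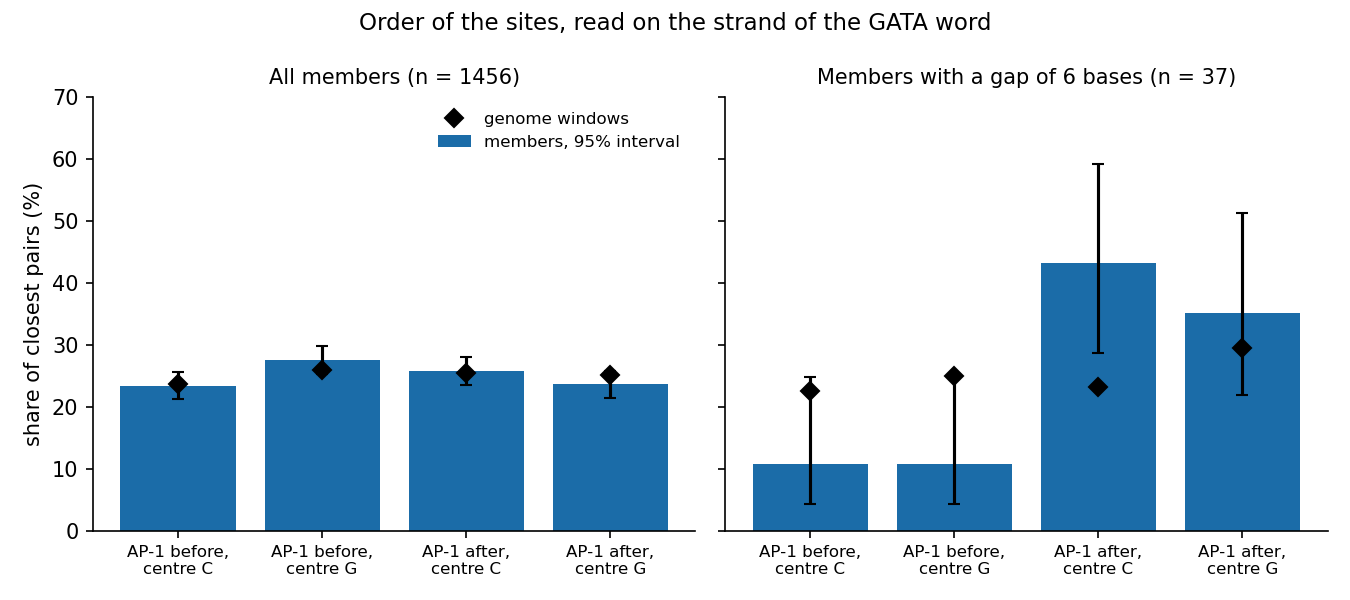
Share of closest pairs in percent for each order of the words and centre base of the AP-1 word, in all 1456 members (left) and in the 37 members with a gap of 6 bases (right). Bars are members with 95% Wilson intervals and diamonds are genome windows. All members split nearly evenly, and at 6 bases the orders with AP-1 after the GATA word are the taller bars.

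Some members shared sequence with each other. By alignment of the central 200 bp, 102 members, or 7.01%, matched another member at 80% identity or more over at least 100 bases, in 16 groups. The largest group held 48 members on 17 chromosomes. The next held 15 members, of which 7 had a gap of 11 bases with AP-1 first. Of the 78 members with a gap of 6 or 7 bases, 11 had such a match. With each group counted once, 1370 members were left and gaps of 6 or 7 bases made up 4.96%.

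NF-E2 differs from AP-1 in preferring GC before the word, and this flank was less frequent in members than in AP-1-only peaks. It preceded 383 of 1593 AP-1 words in members, or 24.0%, and 415 of 1268 in AP-1-only peaks, or 32.7%, a difference of -8.69 points (-12.0 to -5.36), or -5.45 points (-8.85 to -1.91) with AGATAA as the only GATA word. In genome windows it preceded 10.7% of AP-1 words. The longer flank TGC gave the same order, with 12.1%, 17.8% and 3.87%. Median GC content was 44.5% in members and 48.5% in AP-1-only peaks, and the flank was not compared within classes of GC content. Within the members, an AP-1 word with the GC flank was present in 21.4% (18.1 to 25.3%) of those with a gap of 20 bp or less and 27.5% (24.7 to 30.4%) of the others.

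The E-box beside GATA was also less frequent in members. CTG followed by 7 or 8 bases and then a GATA word, the composite arrangement known for TAL1 with GATA1, was found at 11.7% of the 2067 GATA words of members and 17.5% of the 11549 in GATA-only peaks, a difference of -5.83 points (-7.32 to -4.22). Such a composite overlaps the GATA word by construction. It was held by 1.44% of all genome windows, but only 37.3% of windows held a GATA word, while every peak of these classes did. Counted by peak, 15.8% of members and 27.0% of GATA-only peaks held it. The E-box CAGCTG was present in 14.2% of members, 16.3% of GATA-only peaks, 19.5% of AP-1-only peaks and 6.57% of windows.

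Words of ETS and RUNX factors did not differ beyond counting error between members and GATA-only peaks, by -0.615 points (-2.53 to 1.46) and -1.09 points (-3.06 to 1.02). The ETS word GGAAGT was present in 14.5% of members, 15.1% of GATA-only peaks and 10.2% of windows, and the RUNX word TGTGGT in 15.2%, 16.3% and 13.6%. The core of the CTCF motif was rare, with 0.549% of members, 1.32% of GATA-only peaks, 7.11% of peaks with neither word and 0.196% of windows. GGGCGG, bound by SP and KLF factors, was found in 3.37% of members, 4.09% of GATA-only peaks, 8.17% of AP-1-only peaks and 2.12% of windows, and the interval of its difference from GATA-only peaks included 0 (-1.67 to 0.420). CACCC, bound by KLF1 among others, was found in 38.7% of members, 36.1% of GATA-only peaks, 46.1% of AP-1-only peaks and 26.7% of windows. Median GC content was 44.5% in members and in GATA-only peaks, and 48.5% in AP-1-only peaks. All words were searched on both strands, and a match describes the letters only.

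Against GATA-only peaks, the width of members depended on the stretch searched. Their median width was 355.5 bp (342 to 367), against 343 bp in GATA-only peaks, 325 bp in AP-1-only peaks and 291 bp in peaks with neither word. Widths are those of the listed regions, and the narrowest member was 8 bp wide. A width of 500 bp or more was reached by 25.6% of members and 26.0% of GATA-only peaks, a difference of -0.390 points (-2.80 to 2.13). The difference from AP-1-only peaks was 3.49 points (0.127 to 6.79), and its interval included 0 under 9 of 12 alternatives. With sites sought in the central 100 bp, the difference from GATA-only peaks was -4.91 points (-8.19 to -1.26). With sites sought in the whole peak, where a wider peak offers more sequence, the differences were 14.5 points (12.3 to 16.8) from GATA-only and 27.7 points (24.6 to 30.7) from AP-1-only peaks. The 8 widest members were nearest to CXCL3, MAP3K8, PFKP, TNFAIP3, PGRMC2, MYC, HIVEP1 and CNTN5. CXCL3, a chemokine gene, had the widest at 1658 bp, 18.3 kb from its start. MAP3K8 and PFKP, genes of a kinase and a glycolytic enzyme, held theirs in introns, with widths of 1398 and 1350 bp. The member nearest to TNFAIP3, which encodes an inhibitor of NF-kappaB signalling, was 1345 bp wide and lay 3.85 kb from the start.

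**Figure D4:**
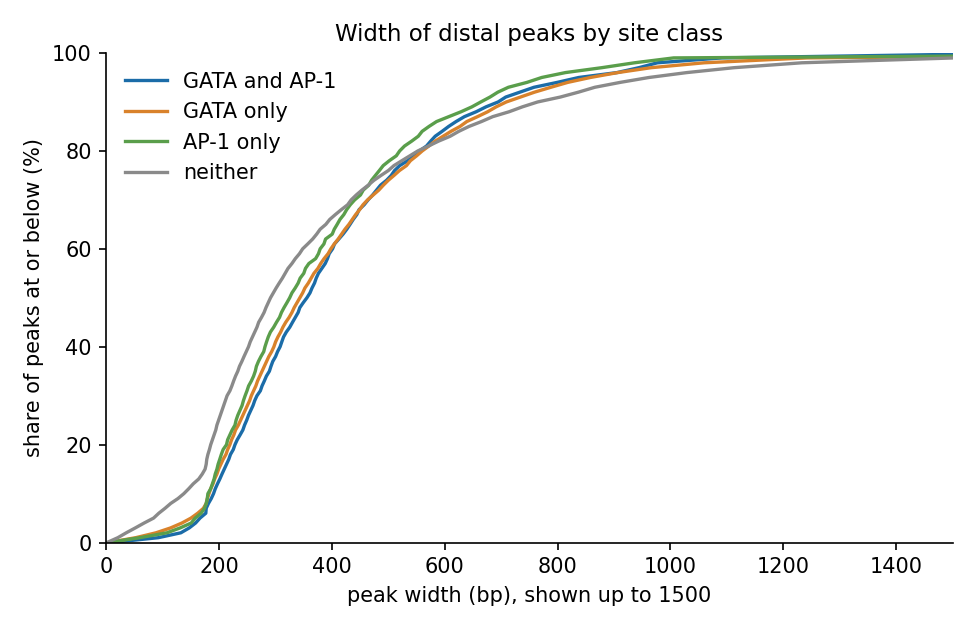
Cumulative share of distal peaks in percent by peak width in bp for the 4 site classes. The curve of members runs close to that of GATA-only peaks, and peaks with neither word reach 50% at the smallest width, 291 bp.

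Members had another listed region nearby less often than other distal peaks did. Regions of any width counted as neighbours, and the list holds very narrow ones, down to 1 bp among peaks with neither word. Whether some neighbours are pieces of one bound region was not tested. Another peak of the list lay within 5 kb of 34.2% of members, 41.6% of GATA-only peaks, 44.4% of AP-1-only peaks and 57.2% of peaks with neither word. Members minus GATA-only peaks gave -7.36 points (-10.0 to -4.63) and members minus AP-1-only peaks -10.2 points (-14.1 to -6.41). When sites were sought in the whole peak, the latter was -3.56 points with an interval that included 0 (-7.37 to 0.212), and the former -2.87 points (-5.14 to -0.587). Within 20 kb the differences were -7.30 and -9.86 points. Among peaks of at least 200 bp, with neighbours of any width still counted, they were -5.55 and -10.1 points within 5 kb. Another member lay within 5 kb of 36 members and within 100 kb of 358.

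Their distance from coding gene starts was larger as well. The median distance to the nearest coding gene start was 24483 bp in members (22798 to 26647), 20906 bp in GATA-only peaks, 18282 bp in AP-1-only peaks and 13182 bp in peaks with neither word. More than 50 kb separated 29.6% of members from any coding start, which was 2.64 points above GATA-only peaks (0.122 to 5.25) and 6.09 points above AP-1-only peaks (2.62 to 9.50). The former interval included 0 under 5 of 12 alternatives and the latter under 2 of 12. To the start of any transcript, coding or not, the median was 8433.5 bp in members (7754 to 9116) and 8224.5 bp in GATA-only peaks (7963 to 8517), and the share over 50 kb differed by 0.0775 points, with an interval that included 0. The same share differed by 2.26 points (0.576 to 3.89) from AP-1-only peaks. Introns of coding genes held 49.6% of members, non-coding genes 13.9%, exons of coding genes 3.57% and no gene 33.0%. Their intron share was -2.54 points from that of GATA-only peaks (-5.36 to 0.279). By chromosome, members made up from 5.23% of distal peaks without a G4 motif on chromosome 21 (8 of 153) to 17.1% on chromosome 13 (29 of 170), leaving aside chromosome Y, which had 1 such peak and no member.

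**Figure D5:**
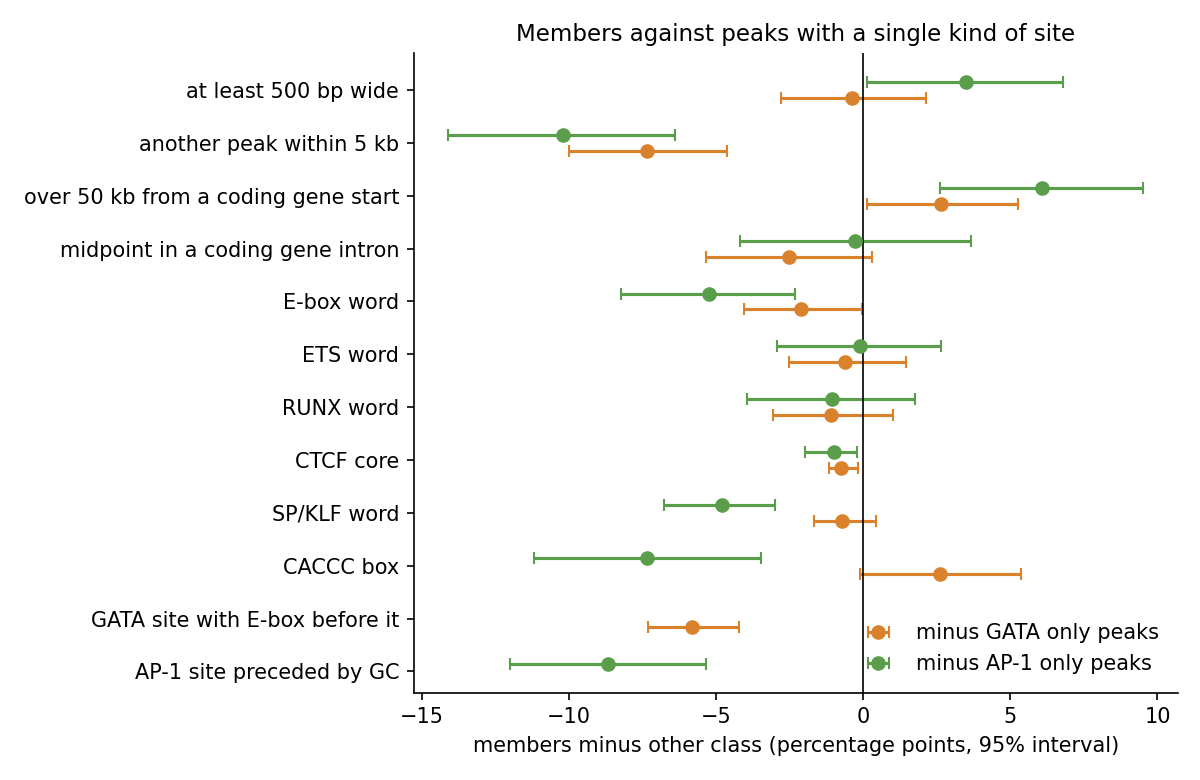
Share in members minus share in GATA-only peaks (orange) or AP-1-only peaks (green), in percentage points with 95% Newcombe intervals, for peak features and sequence words. The bottom pair of features is counted per site, each against the class that has that site. Neighbouring peaks, the E-box before GATA and the GC flank of AP-1 lie left of 0 with intervals that exclude it. So do the E-box word and the CTCF core against both classes, and GGGCGG (SP/KLF) and CACCC against AP-1-only peaks.

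The members were spread over many genes. They had 1278 different nearest coding genes, and 1125 of these were nearest to a single member. Of the 19794 distinct names of coding genes, which cover 19821 gene identifiers, 6.46% were nearest to a member and 30.9% to any distal peak without a G4 motif, the peaks counted as distal for each gene below. CDKAL1, PGRMC2 and TMEM132C were each nearest to 4 members. Those of CDKAL1, which encodes a tRNA-modifying enzyme, lay 18.0 to 300.5 kb from its start, and members were 4 of its 5 distal peaks. The TMEM132C members lay 1141.2 to 1268.1 kb away. A further 19 genes were nearest to 3 members each, namely ADCYAP1, AKR1E2, ANO6, CCDC34, EED, FOXO3, FYB1, GALNT7, HNRNPLL, KDM4C, KLF4, LHFPL2, MBNL2, MED13, MTCL1, MYC, NFIA, NR2F2 and RASGEF1B. EED, a subunit of the Polycomb complex PRC2, and NFIA, a transcription factor, had 15 distal peaks each. Only 636 members lay in the body of their nearest coding gene, and 138 lay in that of another coding gene.

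In the list named for erythroid transcription factors, 7 of 30 genes were nearest to a member, namely FOXO3, IKZF1, KLF3, SOX6, STAT5B, TAL1 and TRIM58. The list is wider than its name, since TRIM58 does not encode a transcription factor. These 7 genes accounted for 9 members of the 86 distal peaks assigned to the list, or 10.5% (5.60 to 18.7%), beside 11.1% over all genes. FOXO3, a forkhead factor that acts in red cell maturation, had members of 264 to 658 bp at 17.8, 37.5 and 81.8 kb. The IKZF1 member was 621 bp wide with a gap of 15 bases, and the TAL1 member was 261 bp wide with a gap of 112 bases. The member nearest to SOX6, a repressor of embryonic globin, lay 2.93 kb from a start, inside the gene.

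Among 27 globin and heme genes, 12 were nearest to a distal peak and HBE1 alone to a member. Members were 1 of the 19 distal peaks of this list, or 5.26% (0.935 to 24.6%). KEL and RHAG, blood group genes, were the red cell membrane genes, with 3 members of 62 distal peaks, or 4.84% (1.66 to 13.3%). Both intervals hold the 11.1% over all genes. KEL had a member 2.28 kb from its start and another at 4.91 kb. None of the 18 listed genes for iron uptake and storage was nearest to a member, while 35 distal peaks were assigned to them. For 0 of 35 the upper 95% Wilson bound is 9.89%, below the 11.1% over all genes. Among the lists examined, only this interval left out that value, and no test was made.

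Megakaryocyte and platelet genes had 4 members of 24 distal peaks, or 16.7% (6.68 to 35.9%), an interval that holds the 11.1% over all genes. Their nearest genes included F2R, the thrombin receptor gene, ITGB3, which encodes a platelet integrin chain, and THBS1, the gene of thrombospondin. The ITGB3 member lay in an intron 12.3 kb from the start, with a width of 503 bp and a gap of 48 bases.

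AP-1 and growth factor response genes were nearest to 13 members of 72 distal peaks, or 18.1% (10.9 to 28.5%), an interval that holds the 11.1% of all genes. The 10 genes were CCND1, CXCL8, EGR1, ETS2, KLF6, LIF, PHLDA1, SPRED2, SPRY1 and VIM, of 36 in the list. KLF6, a zinc-finger factor gene, had a member at 2.09 kb with a gap of 22 bases and another at 67.3 kb. The EGR1 member was 398 bp wide, 23.3 kb from the start, with a gap of 35 bases. LIF, a cytokine gene, had a member of 542 bp at 37.7 kb. The genes of AP-1 and related factors themselves gave 3 members of 51 distal peaks, or 5.88% (2.02 to 15.9%), nearest to FOSL1, MAF and NFE2L3. FOSL1, a FOS family gene, had its member 6.20 kb from the start, and those of NFE2L3 and MAF lay 302.4 and 426.5 kb away.

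JAK-STAT and BCR-ABL1 signalling genes, of interest because K562 carries the BCR-ABL1 fusion, gave 7 members of 58 distal peaks, or 12.1% (5.97 to 22.9%). Their genes were GAB2, INPP5D, KIT, LYN, PIM1, SOCS2 and STAT5B. GAB2, an adaptor gene, had a member 6.18 kb from its start with an AP-1 word preceded by TGC. KIT, the stem cell factor receptor gene, had a member 71.5 kb away with a gap of 12 bases. SWI/SNF subunit genes gave 5 members of 34 distal peaks, or 14.7% (6.45 to 30.1%), nearest to ARID1A, ARID1B, BCL7C, BICRA and SMARCC1. Both intervals hold the 11.1% over all genes. The ARID1A member belonged to the group of 48 members with similar sequence. The SMARCC1 member was 672 bp wide and lay in an intron 19.5 kb from the start, with a gap of 11 bases.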

How the data were processed

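ChIP-seq of SMARCA4 in K562 was analysed from the region list the authors deposited. The authors called peaks in each of 3 libraries against input on hg19 and kept regions found in 2 or more, so the deposited values are region starts and ends in bp, pooled over replicates. Depth is not in the list. Peaks were annotated with GENCODE transcript starts (254376 transcripts) and searched on the GRCh37 sequence with Python 3.11.15, numpy 2.4.6 and scipy 1.17.1. No peak ran past a chromosome end. The closest GATA and AP-1 pair represented each member. Shares have Wilson and differences Newcombe 95% intervals, and medians binomial intervals. Members were compared by BLAST 2.17.0. Site finding was also run on simulated data, and no value from that run is given here. Genes were named when nearest to the 8 widest members, to the most members, to the smallest gaps, or, in a gene list, to the widest members (up to 6 genes a list). Other list genes, and the members with a gap of 6 bases, were named after their values were seen. Members and lists were chosen with earlier results of these data known.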

Additional observations from a re-analysis of the deposited data

How the results depend on the processing

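Fewer neighbours than GATA-only peaks (-8.05 to -2.87 points) and the GC flank difference (-9.27 to -5.45 points) kept their direction and their side of 0 under every alternative run for them. None of the alternatives for the flank matched GC content. The share with AP-1 after GATA ran from 48.6 to 50.6%, inside its reported interval and on either side of 50%. With a 100 bp window, members numbered 563, the median gap was 19 bp, wide peaks differed by -4.91 points from GATA-only and 0.692 from AP-1-only peaks, and distance over 50 kb by 0.536 and 3.95 points. With the whole peak, members numbered 2372, the odds ratio was 1.01, the gap 44 bp, the wide-peak difference 14.5 points from GATA-only and 27.7 from AP-1-only peaks, where wider peaks offer more sequence by construction, and the neighbour difference from AP-1-only peaks -3.56, its interval including 0. With AGATAA only, members numbered 804, the gap was 37 bp, and differences were 1.41 points (distance, GATA-only), 2.73 (width, AP-1-only) and 3.45 (distance, AP-1-only). All pairs gave a gap of 45 bp and members with 1 site of each kind 41 bp. The distance difference from GATA-only peaks was 1.42 at 2500 bp from starts, 1.87 for peaks of at least 200 bp and 0.0775 to any transcript start. The width difference from AP-1-only peaks was 3.31 at 2500 bp, 2.88 for peaks of at least 200 bp, 3.29 with the CRE word TGACGTCA, 2.56 with G4 peaks kept, 2.98 on autosomes, 0.615 for 1000 bp or more and 3.34 with similar members counted once, a setting added after seeing the data. What caused the other changes was not tested here. No paired analysis was possible because replicates are pooled in the region list, which holds no value for any one of them, so no replicate could be left out. The list carries no depth, and the effect of depth on which regions are listed was not tested.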
